A study of Mus musculus with 6 samples.

Results

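The 10 genes described here are the HIF transcription factor subunits Hif1a, Epas1 and Arnt, the oxygen-dependent regulators Vhl, Egln1 and Egln3, and the hypoxia targets Vegfa, Adm, Car9 and Bnip3. They were taken by gene symbol from the 22477 symbols of the count table, which held all 10, and all 10 passed the filter on low counts that left 18027 genes for testing. RNA of 4 lung tumors (tumor 3, 4, 5 and 6) was compared with RNA of 2 samples of normal lung (normal lung 1 and 2), numbered after the sample titles and each from a different mouse. All 6 mice are labelled with the genotype Rb1/Trp53/MycT58A, the RPM model of small cell lung cancer. In that model Cre recombinase removes floxed parts of Trp53 and Rb1 and releases a mutant Myc that is slow to be degraded. The labels list Ad5CGRP-Cre, an adenovirus whose CGRP promoter directs Cre to pulmonary neuroendocrine cells, for the normal lungs as well as for the tumors. Per the labels' protocols the virus was instilled into the trachea of a cohort at 8 weeks of age, at 2.5e+07 plaque-forming units. Neither the age at collection nor a drug arm is given for these 6 samples.

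Hypoxia-inducible factors (HIFs) are dimers of an oxygen-labile alpha subunit, encoded by Hif1a or Epas1 (HIF-2 alpha), and the stable partner ARNT. When oxygen is present, prolyl hydroxylases of the EGLN family mark the alpha subunit, and VHL, the substrate receptor of a ubiquitin ligase, has it destroyed. The factors are therefore controlled mainly at the level of protein, and the levels given here are of RNA. In normal lung, Epas1 is known for its high expression in endothelium and alveolar type 2 cells.

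Total counts were 54735438 to 70817440 in the tumors and 99122494 and 91049413 in the normal lungs. Levels are given as CPM, counts relative to library size after scaling by the trimmed mean of M-values (TMM). Adjusted p-values come from the edgeR quasi-likelihood test over all 18027 genes, with a threshold of 0.05. The labels match their markers: all 11 neuroendocrine markers rose in tumors, with a summed level of 930 to 1445 CPM in tumors against 13.6 and 22.7 CPM in normal lungs. Myc stood at 70.2 to 175 CPM in tumors and at 7.90 and 18.2 CPM in normal lungs, while Trp53 fell (log2 fold change -0.94 ± 0.27, SE, adjusted p = 0.019) and Rb1 did not pass the test (adjusted p = 0.345). Counts over whole genes do not show the deletion of floxed exons. Rn45s, Rpph1 and Rmrp, which carry no poly(A) tail, took 5.46% to 13.9% of the counts in tumors and 0.238% and 0.55% in normal lungs. Of the genes tested, 31.3% were called higher and 32.6% lower in tumors.

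Of the 10 genes, 2 rose in tumors (Egln3 and Bnip3), 4 fell (Epas1, Arnt, Vegfa and Car9) and 4 did not pass the test (Hif1a, Vhl, Egln1 and Adm). With 31.3% and 32.6% of all genes called, these counts are near the background, so the genes are described one at a time. With upper quartile scaling or DESeq2, 3 rose, where 33.6% and 34.5% of all genes were called higher. Without normal lung 1, 1 rose and 3 fell (18% and 22.9% of all genes), and without normal lung 2, 1 rose and 3 fell (20% and 23.3%). Without tumor 4, 5 fell (34.3% of all genes). The targets did not move as a block, since Vegfa and Car9 fell where Egln3 and Bnip3 rose. The median log2 fold change of the 10 genes was -0.60, against 0.015 over all genes tested. The samples are pieces of whole tissue, in which fewer cells of a type and less RNA per cell cannot be told apart.

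**Figure D1:**
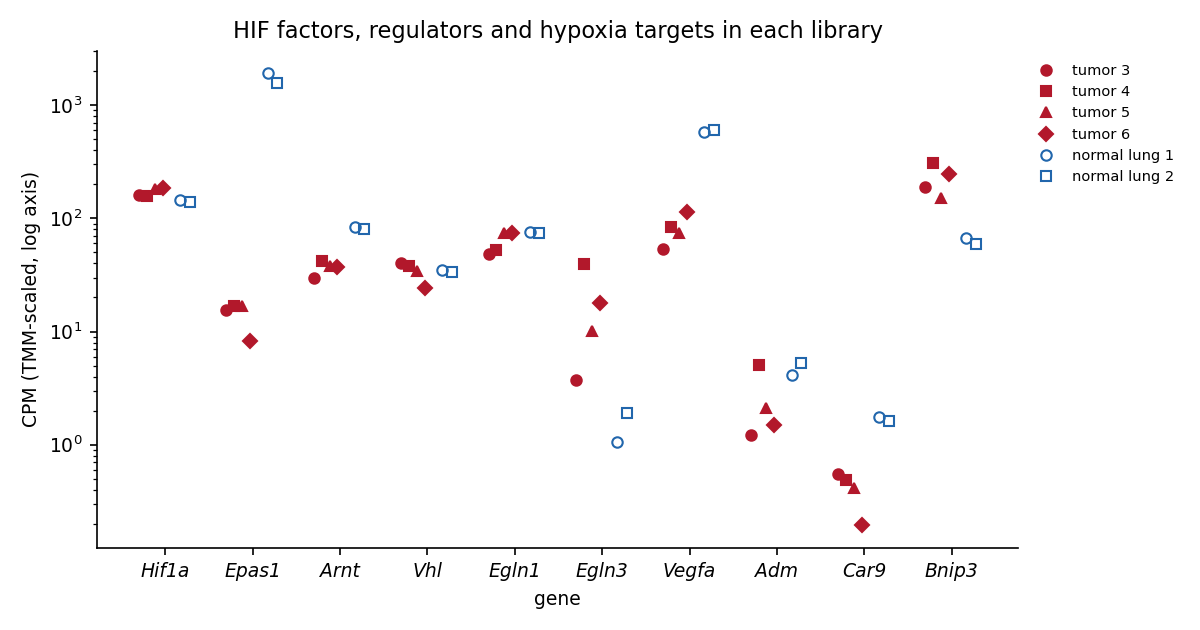
Level of each of the 10 genes in each library, in CPM on a log axis, with the 4 tumors as filled red symbols and the 2 normal lungs as open blue symbols. Epas1 sits between 8.29 and 16.8 CPM in tumors and at 1910 and 1559 CPM in normal lungs, while Hif1a differs little between the groups.

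Epas1 had by far the widest gap among the 10 genes. It stood at 15.3, 16.7, 16.8 and 8.29 CPM in tumors 3 to 6, against 1910 and 1559 CPM in normal lungs 1 and 2. Every tumor lay far below both normal lungs, and tumor 6 was the lowest. The log2 fold change was -6.92 ± 0.34 (SE, adjusted p = 3.44e-05), or 121-fold lower, which placed Epas1 as number 61 from the bottom of the 18027 genes. Leaving out any single library kept it between -7.08 and -6.65.

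Hif1a, the alpha subunit found in most cell types, stood at 162, 157, 180 and 186 CPM in tumors 3 to 6 and at 145 and 139 CPM in normal lungs. All 4 tumors were above both normal lungs, as were 37.4% of all genes, but the distance was small. The log2 fold change of 0.27 ± 0.14 (SE) did not pass the test (adjusted p = 0.136). It passed with upper quartile scaling (0.40, adjusted p = 0.0446), which raised the median of all genes by 0.122, and with DESeq2 (0.33, adjusted p = 0.0435). In the GENCODE annotation of GRCm38, exons of Hif1a share 330 bases with the antisense gene Gm15283 and 148 bases with Gm49321, and whether the counting used strand is not stated.

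The balance of the 2 alpha subunits can be read within each library, with no scaling between libraries. The log2 ratio of Epas1 to Hif1a counts was -3.40, -3.24, -3.42 and -4.49 in tumors 3 to 6, against 3.72 and 3.49 in normal lungs. Epas1 thus had 0.0445 to 0.106 counts per count of Hif1a in tumors and 13.2 and 11.2 in normal lungs, and the order of the subunits was the opposite in the tissues. Their exons are of nearly equal length, 5516 and 5448 bases in GRCm38. The mean log2 ratio was -3.64 ± 0.58 in tumors (SD, n = 4) and 3.61 ± 0.17 in normal lungs (SD, n = 2), a difference of -7.24 (two-sided exact permutation test, p = 0.0667). That is the smallest p that the 15 ways of placing the labels allow.

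**Figure D2:**
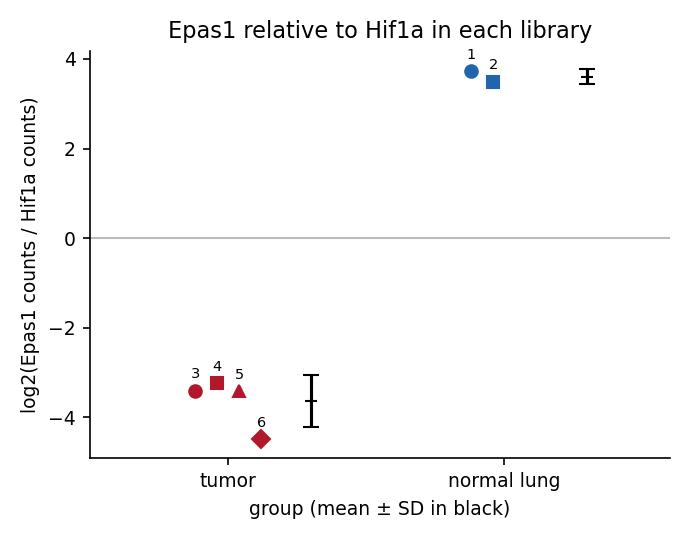
Log2 ratio of Epas1 counts to Hif1a counts in each library, with the 4 tumors (numbered 3 to 6) left of the 2 normal lungs (1 and 2) and the mean ± SD of each group in black. All tumors lie below 0 and both normal lungs above it, and tumor 6 is lowest at -4.49.

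Genes of other cell types moved along with Epas1. All 14 endothelial markers fell, and their summed level was 110 to 253 CPM in tumors against 8684 and 7870 CPM in normal lungs 1 and 2. Of the 253 CPM in tumor 4, 99.6 CPM came from Vwf, the clotting factor of endothelium. All 10 alveolar type 2 markers and all 8 alveolar type 1 markers fell as well, with sums of 239 to 1627 CPM and 155 to 199 CPM in tumors, against 30034 and 27214 CPM and 9026 and 8009 CPM in normal lungs. Of the alveolar type 2 sums, Lyz2 alone gave 1034 of 1627 CPM in tumor 3 and 176 of 239 CPM in tumor 6. The fall was not limited to these 3 lists. Of the club cell markers 5 of 6 fell, of the fibroblast markers 5 of 8 and of the macrophage markers 4 of 8. Of the smooth muscle and pericyte markers 7 of 8 fell and 1 rose, and all 5 red cell markers tested fell. Over all genes, 32.6% were called lower. No endothelial marker was at 0 in tumors: Pecam1, an adhesion protein of endothelium, stood at 16.7 to 27.1 CPM in tumors and 987 and 883 CPM in normal lungs. Tumor 6, lowest for Epas1, also had the lowest endothelial and alveolar type 2 sums, 110 and 239 CPM. That tumor was also lowest for the alveolar type 1, smooth muscle and pericyte, mesothelial, macrophage, red cell and neuroendocrine sums. The club cell sum was lowest in tumor 4, and the fibroblast sum was highest in tumor 6. The part of these cells in the Epas1 difference was not tested.

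The 3 genes whose profile over the 6 libraries was most like that of Epas1, by Euclidean distance of centred log2 CPM, were Acvrl1, Prx and Slco2a1, at distances of 0.504, 0.509 and 0.574. Their log2 fold changes were -6.71, -7.02 and -6.50. With 6 libraries in 2 groups, such likeness reflects mainly a similar fold change.

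Arnt, the shared partner of both alpha subunits, stood at 29.8, 42.2, 38.3 and 37.4 CPM in tumors 3 to 6, against 84.5 and 80.2 CPM in normal lungs. Every tumor was below both normal lungs, as for 39.8% of all genes. Arnt was thus 2.23-fold lower, with a log2 fold change of -1.16 ± 0.17 (SE; edgeR adjusted p = 0.00125). Its paralog Arnt2, known for expression in neural tissue, moved the other way. Arnt2 stood at 59.8, 31.6, 59.0 and 52.1 CPM in tumors, against 0.569 and 1.23 CPM in normal lungs, and its log2 fold change was 5.81 ± 0.51 (SE; adjusted p = 0.000179 by edgeR).

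Among the regulators, Vhl stood at 40.2, 38.1, 33.9 and 24.1 CPM in tumors 3 to 6 and at 34.9 and 33.9 CPM in normal lungs. The groups overlapped, the log2 fold change was -0.013 ± 0.23 (SE, adjusted p = 0.962), and its sign turned with RLE or upper quartile scaling and without tumor 6, among others. Egln1, the main prolyl hydroxylase acting on HIF alpha subunits, stood at 48.8, 52.6, 73.7 and 73.8 CPM in tumors and at 75.9 and 73.6 CPM in normal lungs. Tumors 5 and 6 were level with normal lung and tumors 3 and 4 were lower, and the log2 fold change of -0.26 ± 0.22 (SE) did not pass (adjusted p = 0.319).

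Egln3, a prolyl hydroxylase that is itself a HIF target and so part of the feedback on the pathway, varied most between tumors. It stood at 3.76, 39.6, 10.2 and 17.7 CPM in tumors 3 to 6, against 1.06 and 1.90 CPM in normal lungs. Every tumor was above both normal lungs, tumor 4 was 10.6 times tumor 3, and the log2 fold change was 3.59 ± 1.02 (SE, adjusted p = 0.0193). The call was lost without normal lung 1 (3.22, adjusted p = 0.119) and without normal lung 2 (4.06, adjusted p = 0.0737), fits in which the lone normal lung takes its spread from the tumors. Without tumor 4, the highest, Egln3 stayed called at a lower log2 fold change of 2.84. Over all alternatives its adjusted p ran from 1.29e-05 to 0.119. Relative to Egln1, Egln3 had 0.077, 0.753, 0.138 and 0.24 counts per count in tumors 3 to 6 and 0.0139 and 0.0258 in normal lungs.

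**Figure D3:**
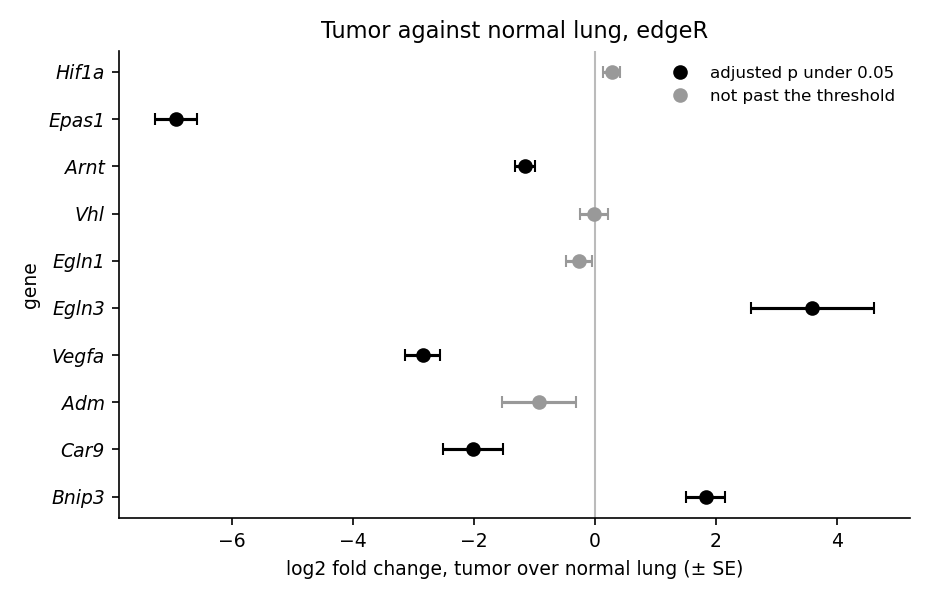
Log2 fold change of each of the 10 genes, tumor over normal lung, with bars of 1 SE and black points for adjusted p under 0.05 (edgeR). Epas1 lies farthest to the left at -6.92, Egln3 farthest to the right at 3.59, and Hif1a, Vhl, Egln1 and Adm are grey.

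Of the targets, Bnip3, a mitochondrial outer membrane protein that acts in mitophagy and cell death, was the more firmly raised. It stood at 187, 307, 150 and 248 CPM in tumors 3 to 6, against 66.9 and 58.9 CPM in normal lungs. All tumors were above both normal lungs, and the log2 fold change was 1.83 ± 0.32 (SE, adjusted p = 0.00276). Leaving out any single library kept it between 1.64 and 1.98, with every call kept. Exons of Bnip3 share 504 bases with the antisense gene Gm45507, whose reads cannot be told apart from its own without strand.

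Vegfa, the ligand that drives growth and permeability of blood vessels, went against that direction. It stood at 53.8, 83.3, 74.5 and 115 CPM in tumors 3 to 6, against 575 and 603 CPM in normal lungs. Every tumor was far below both normal lungs, with tumor 6 the highest of the 4. Vegfa was 7.21-fold lower, with a log2 fold change of -2.85 ± 0.28 (SE; edgeR adjusted p = 0.000278). Alveolar type 1 cells are a known source of Vegfa in mouse lung, and their markers fell by a median log2 fold change of -5.45. Their summed level was lowest in tumor 6, at 155 CPM, where Vegfa was highest, and 184 to 199 CPM in the other tumors. Of the 155 CPM, 80.1 CPM came from Cav1, which stood at 26.7 to 29.6 CPM in the other tumors. The mean log2 CPM of the list was 3.18 in tumor 6 and 4.32 to 4.51 in the other tumors. The part of alveolar type 1 cells in the Vegfa difference was not tested.

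Car9, the cell surface carbonic anhydrase widely used as a marker of hypoxic tumor cells, was scarce in every library. It stood at 0.551, 0.491, 0.417 and 0.194 CPM in tumors 3 to 6, from 37, 25, 32 and 13 counts, against 1.75 and 1.61 CPM in normal lungs, from 172 and 149 counts. All tumors were below both normal lungs. The log2 fold change was -2.02 ± 0.49 (SE, adjusted p = 0.0107), lost without normal lung 1 (-1.97, adjusted p = 0.0748) and without normal lung 2 (-2.09, adjusted p = 0.0582). Its adjusted p ran from 0.00394 to 0.0748 over all alternatives. Mesothelial markers, of the cells that line the lung surface, fell too (5 of 5 tested), with sums of 23.8, 12.8, 15.2 and 6.21 CPM in tumors 3 to 6 against 341 and 351 CPM in normal lungs. Tumor 3 was highest and tumor 6 lowest for both Car9 and that sum, and also for the summed macrophage and red cell markers. The part of mesothelium was not tested. Exons of Car9 share 145 bases with the antisense gene Gm12454.

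Adm, the gene of the vasodilator peptide adrenomedullin, stood at 1.21, 5.09, 2.12 and 1.5 CPM in tumors 3 to 6, against 4.17 and 5.24 CPM in normal lungs. Tumor 4 lay between the normal lungs and the other tumors below them. The log2 fold change was -0.93 ± 0.61 (SE, adjusted p = 0.22). Without tumor 4 it was -1.54 and passed the test (adjusted p = 0.0124), so that 1 tumor decided the call. Over all alternatives its adjusted p ran from 0.0124 to 0.49.

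The windows around the transcription start of the targets and hydroxylases were read for ACGTG, the core of the hypoxia response element with A in its first place, on both strands (CACGT on the strand printed). RefSeq windows on GRCm38.p6, from 250 bases before to 50 after a start, were found for 9 of the 10 genes, all but Epas1. The 4 below are shown because they belong to both targets that rose, to the target Car9 that fell and to Egln1, which did not pass. Capitals mark each match. They lie at chr7:138909457-138909756, minus strand (Bnip3), chr12:54203825-54204124, minus strand (Egln3), chr4:43506776-43507075, plus strand (Car9) and chr8:124949205-124949504, minus strand (Egln1).
Bnip3: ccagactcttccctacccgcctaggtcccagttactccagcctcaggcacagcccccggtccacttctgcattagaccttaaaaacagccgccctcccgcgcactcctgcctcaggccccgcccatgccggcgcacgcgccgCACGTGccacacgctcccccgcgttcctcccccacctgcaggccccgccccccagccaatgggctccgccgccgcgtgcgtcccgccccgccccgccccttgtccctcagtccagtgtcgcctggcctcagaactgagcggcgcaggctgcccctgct
Egln3: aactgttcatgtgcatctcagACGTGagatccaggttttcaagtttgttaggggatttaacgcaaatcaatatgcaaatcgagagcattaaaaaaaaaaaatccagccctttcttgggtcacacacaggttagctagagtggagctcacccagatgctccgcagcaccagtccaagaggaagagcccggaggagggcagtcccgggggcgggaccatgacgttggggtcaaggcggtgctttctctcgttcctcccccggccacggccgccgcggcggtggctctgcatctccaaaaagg
Car9: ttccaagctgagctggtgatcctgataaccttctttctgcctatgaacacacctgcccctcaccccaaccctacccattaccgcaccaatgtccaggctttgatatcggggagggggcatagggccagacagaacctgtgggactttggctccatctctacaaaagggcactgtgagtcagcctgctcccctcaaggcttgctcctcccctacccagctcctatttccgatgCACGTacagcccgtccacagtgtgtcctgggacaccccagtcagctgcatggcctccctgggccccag
Egln1: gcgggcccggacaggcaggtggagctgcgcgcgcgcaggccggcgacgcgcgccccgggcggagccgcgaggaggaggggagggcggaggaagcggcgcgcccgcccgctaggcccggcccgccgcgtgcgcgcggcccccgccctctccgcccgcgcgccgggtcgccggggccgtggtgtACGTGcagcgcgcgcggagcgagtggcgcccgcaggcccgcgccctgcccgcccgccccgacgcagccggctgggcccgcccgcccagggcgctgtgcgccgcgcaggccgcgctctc
The Bnip3 match begins 108 bases before the start and reads CACGTG, which holds ACGTG on both strands and is also the E-box bound by MYC. The matches of Egln3, Car9 and Egln1 begin 229, 18 and 68 bases before the start. Hif1a held matches 135, 134 and 70 bases before its start, the first 2 of them within 1 CACGTG. Vegfa held a match in only the second of its 2 windows. On the minus strand that window (chr17:46025114-46025413) lies downstream of the first (chr17:46032328-46032627), which held none. The windows of Arnt, Vhl and Adm held none either. Matches were thus held by 6 of the 10 windows read, from 6 of the 9 genes, and these include genes that rose, fell and did not pass. Over all 32851 windows, 19.6% held ACGTG on either strand and 7.15% held CACGTG. The difference between these shares was not tested. A match describes letters only, and elements farther from the start were not read.

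Levels of different genes were set side by side per kilobase of exon (GENCODE M21, GRCm38, which is not the mm9 build named in the submitters' notes). In tumors the mean levels per kilobase ran from Bnip3 (120 CPM per kilobase) through Hif1a (31.5), Vegfa (23.2), Egln1 (17.3), Vhl (12.2), Arnt (7.65), Egln3 (6.70), Epas1 (2.59) and Adm (1.78) to Car9 (0.204). Over the 4 tumors the range of Bnip3 at the top and that of Car9 at the bottom did not overlap their neighbour's, while the ranges of all other neighbours overlapped. Within each of the 4 tumors, Hif1a was nonetheless above Vegfa, Vegfa above Egln1 and Vhl above Arnt. The other neighbours with overlapping ranges kept that order in 3 of 4 tumors. In normal lungs the order of mean levels per kilobase was Epas1 (315), Vegfa (167), Bnip3 (33.9), Hif1a (26.0), Egln1 (20.8), Arnt (17.1), Vhl (12.3), Adm (3.38), Car9 (0.829) and Egln3 (0.555), and no neighbours overlapped between the 2 libraries.

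The 4 tumors differed in the targets (plot of tumor-to-tumor differences). Egln3, Adm and Bnip3 were each highest in tumor 4, at 39.6, 5.09 and 307 CPM, and Vegfa was highest in tumor 6, at 115 CPM. Of 19 glycolytic hypoxia targets 12 were highest in tumor 4 and 6 in tumor 6, and of 37 tested other hypoxia targets 16 were highest in tumor 4 and 12 in tumor 6. Those are 63.2% and 31.6% of the glycolytic list, and 43.2% and 32.4% of the other targets. Over all genes tested, 28.6% were highest in tumor 4 and 25.1% in tumor 6. The mean log2 CPM of the glycolytic list was 6.32, 7.28, 6.58 and 7.04 in tumors 3 to 6, against 5.82 and 5.87 in normal lungs. For the other targets it was 4.52, 5.00, 4.55 and 4.82 in tumors, against 4.87 and 4.89 in normal lungs. Car9 and Epas1 did not follow that order, as both were lowest in tumor 6. Myc was also highest in tumors 6 and 4, at 175 and 169 CPM, against 70.2 and 84.1 CPM in tumors 3 and 5. The part of Myc in the order of the targets was not tested.

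**Figure D4:**
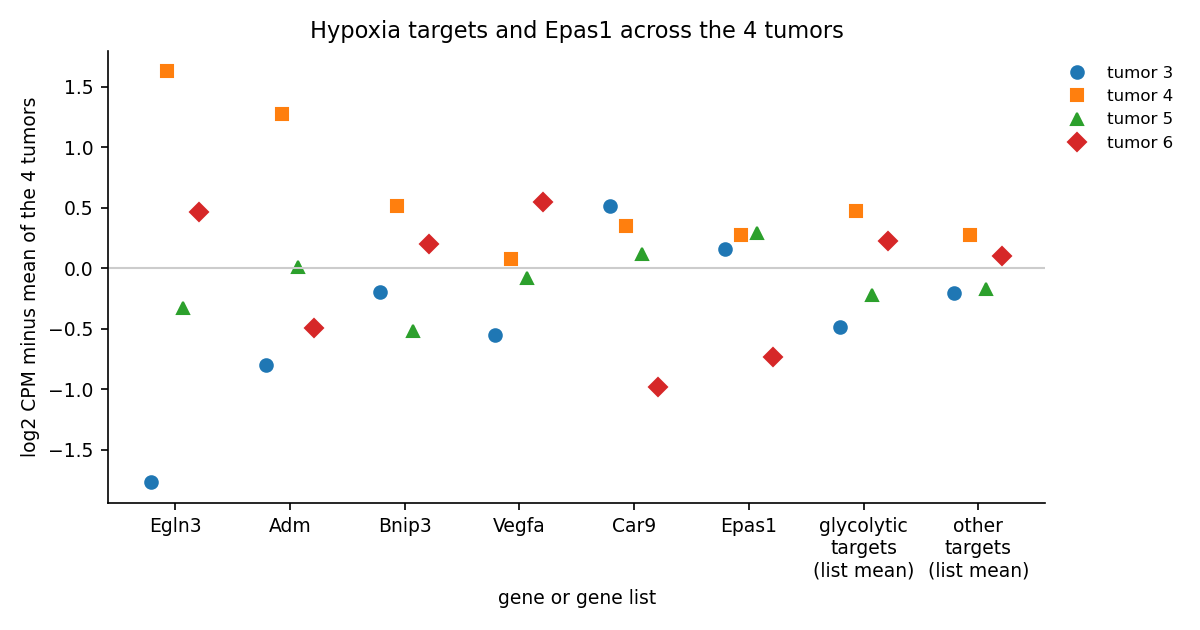
Log2 CPM of 6 genes and the mean log2 CPM of 2 gene lists in each of the 4 tumors, minus the mean of the 4 tumors. Egln3, Adm, Bnip3 and the mean of both lists are highest in tumor 4, while Car9 and Epas1 are lowest in tumor 6.

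The wider machinery that handles HIF was read as a list of 15 genes, of which 8 rose, 5 fell and 2 did not pass (median log2 fold change 0.69). That is 53.3% higher and 33.3% lower, against 31.3% and 32.6% over all genes tested. The subunits of the ubiquitin ligase that works with VHL were among those that rose. Cul2, its scaffold, stood at 108 ± 7.96 CPM in tumors (SD, n = 4) and 45.9 ± 0.475 CPM in normal lungs (SD, n = 2), up by 1.23 ± 0.15 on the log2 scale (SE; edgeR adjusted p = 0.000526). Tceb1 (elongin C) rose by 2.25 and Rbx1, the RING subunit, which has pseudogene copies in RefSeq, by 1.32 on the log2 scale. Siah1b, a ubiquitin ligase of a family that acts on EGLN proteins, rose 6.46-fold. The asparaginyl hydroxylase gene Hif1an, whose product blocks coactivator binding by HIF, fell by 1.46 (SE 0.16, adjusted p = 0.000425). Cited2, a competitor for that coactivator, fell by 0.95 (adjusted p = 0.00279) and the coactivator genes Ep300 and Crebbp by 0.67 and 0.62. The prolyl hydroxylase gene Egln2 fell by 0.46 (adjusted p = 0.0187), a call lost without either normal lung (-0.50 and -0.46), without tumor 6 (-0.40) and with upper quartile scaling (-0.34). The count that fell was 2 without normal lung 1, normal lung 2 or tumor 6, and 3 with upper quartile scaling or no composition scaling; all genes called lower were 22.9%, 23.3%, 31.5%, 30.6% and 32.1% in those fits.

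Of the 19 glycolytic hypoxia targets 9 rose, 1 fell and 9 did not pass (median 0.78), or 47.4% higher and 5.26% lower beside 31.3% and 32.6% of all genes. Ldha, which makes lactate, stood at 994, 1430, 850 and 1095 CPM in tumors 3 to 6, against 214 and 205 CPM in normal lungs, up by 2.38 ± 0.27 on the log2 scale (SE; edgeR adjusted p = 0.000449). Pgk1 and Tpi1, both glycolytic enzymes, rose 3.67-fold and 3.84-fold. Slc16a3, the lactate exporter, stood at 90.2 to 217 CPM in tumors and 9.93 and 11.8 CPM in normal lungs. The glucose transporter gene Slc2a1, a classical HIF target, did not pass (0.46 ± 0.52, adjusted p = 0.461). The gene that fell was Pfkfb4, a regulator of fructose bisphosphate levels, at 8.61 ± 0.901 CPM in tumors (SD, n = 4) and 47.7 ± 4.18 CPM in normal lungs (SD, n = 2). Without tumor 4 the number that fell was 2, where 34.3% of all genes fell. Ldha, Pgk1 and other glycolytic genes have pseudogene copies in RefSeq, so the split of their reads is uncertain.

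Of 38 other hypoxia targets 37 were tested, all but Epo, and 11 rose, 11 fell and 15 did not pass (median -0.28). The shares of 29.7% each way are near the 31.3% and 32.6% of all genes. Mif, a cytokine, rose 11.5-fold, though it too has pseudogene copies. Mxi1, a MAX partner that opposes MYC, rose 3.00-fold and Fam162a, a mitochondrial protein, 4.81-fold. Ankrd37 stood at 12.5 to 38.0 CPM in tumors and 2.87 and 3.09 CPM in normal lungs. Pdgfb, a growth factor made by endothelium, was 26.1-fold lower, Ppp1r3c, a glycogen-targeting subunit, 11.2-fold lower, and the collagen lysyl hydroxylase gene Plod1 4.04-fold lower.

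Genes that act with the targets were listed as well. Of 9 VEGF ligands and receptors other than Vegfa, 6 fell, 1 rose and 2 did not pass, or 66.7% lower and 11.1% higher beside 32.6% and 31.3% of all genes. The receptor genes Kdr, Flt1 and Flt4 were 71.3-fold, 30.5-fold and 22.1-fold lower, and the ligand gene Vegfb rose by 0.98 ± 0.32 (SE, adjusted p = 0.0331), a call lost without normal lung 1 (0.82) or normal lung 2 (1.13). Of 5 genes for adrenomedullin receptors, 4 fell and 1 did not pass, or 80% lower beside 32.6% of all genes. Calcrl, the receptor itself, stood at 8.93 to 35.5 CPM in tumors and 2914 and 2561 CPM in normal lungs. Its partner Ramp2 stood at 1.80 to 6.75 CPM in tumors and 302 and 285 CPM in normal lungs. Kdr, Flt1, Calcrl and Ramp2 are also among the 14 endothelial markers, whose summed level is given above.

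Of 15 other carbonic anhydrase genes 13 were tested, of which 3 rose, 5 fell and 5 did not pass. The shares, 23.1% higher and 38.5% lower, are near the 31.3% and 32.6% of all genes. Car12, a membrane-bound form that is also a hypoxia target, stood at 26.4, 27.0, 13.9 and 62.1 CPM in tumors 3 to 6, against 0.528 and 1.45 CPM in normal lungs, up by 5.03 ± 0.84 on the log2 scale (SE; edgeR adjusted p = 0.00225). Car12 thus lay above every normal lung value in every tumor, where Car9 lay below. Car4, of lung capillaries, stood at 0.0598 to 1.49 CPM in tumors and 91.0 and 101 CPM in normal lungs. Without normal lung 2 the number that fell was 3, where the share of all genes called lower was 23.3%. Of 17 mitophagy genes that act beside Bnip3, 4 rose, 9 fell and 4 did not pass, or 23.5% higher and 52.9% lower beside 31.3% and 32.6% of all genes. Bnip3l, its paralog, rose by 0.70 ± 0.23 (SE, adjusted p = 0.0329), a call lost without normal lung 1 (0.77), normal lung 2 (0.60) or tumor 3 (0.70). Pink1, a kinase of the parallel PINK1 and Parkin route, was 4.96-fold lower, and the mitophagy receptor genes Optn and Sqstm1 6.83-fold and 3.56-fold lower. Without normal lung 1 or normal lung 2 the number that rose was 2, where 18% and 20% of all genes were called higher.

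**Figure D5:**
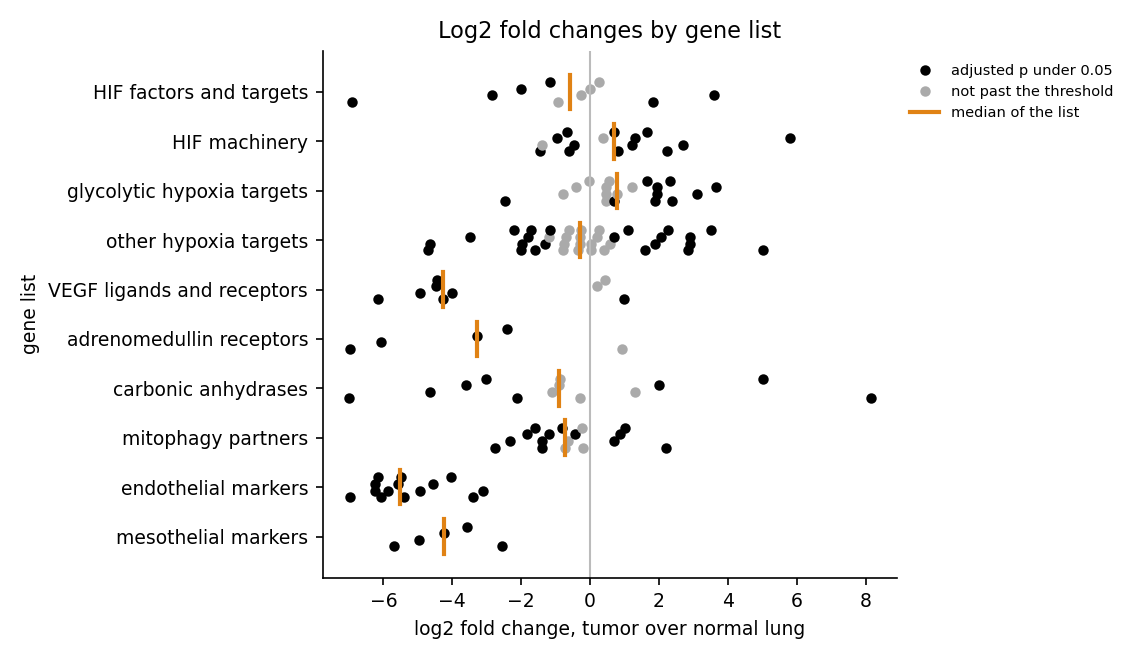
Log2 fold change, tumor over normal lung, of every tested gene in 10 lists, with black points for adjusted p under 0.05 (edgeR), grey points for the rest and an orange bar at the list's median. The endothelial markers lie wholly left of 0 (median -5.53), while the hypoxia target lists spread to both sides.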

How the data were processed

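Poly(A)-selected RNA of flash-frozen tissue was sequenced after NEBNext Ultra II library preparation, per the labels' protocols. The authors deposited unnormalized read counts for each gene symbol, which the labels trace to TPMCalculator. The gene annotation and the strand option of that step were not given in the sources used here. Tools named in the submitters' processing notes, with no role or order, are STAR 2.5.4a, Trimmomatic 0.36, Trim Galore, R 3.5.1 and DESeq2 1.22.2, with the build mm9. Of counts from 1 to 10, 61.2% were even, so both mates of a pair may have been counted, and halved counts were tried. The 14 highest values end in 0.

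Counts were tested with edgeR 4.0.16 in R 4.3.3 (quasi-likelihood, TMM scaling, filter by group with minimum count 10 and minimum total 15, tissue as the only term), adjusted by Benjamini-Hochberg over 18027 genes. SE is the log2 fold change over the square root of F. A prior of 2 counts was added for log2 CPM, and edgeR's common biological coefficient of variation came to 0.433. The test was checked on simulated counts in which few genes changed. That check does not cover scaling where as many genes change as were called here. No 2 libraries of a group agreed within sampling noise (chi-square over degrees of freedom of 27.9 or more on halved counts). Each library is labelled as a separate mouse. All libraries carry 1 batch label. Members and lists (7 pathway and 10 marker lists) were chosen with earlier results of these data known. Genes named are the 10 members, from each list up to 3 that rose and 3 that fell with the smallest p, and genes most like a member. Tceb1, Rbx1, Ep300 and Crebbp, and Slc16a3, Slc2a1, Ankrd37, Vwf, Cav1 and Epo were chosen after their values were seen. The alternatives tried were scaling by RLE, by upper quartile or by totals alone, no filter, a filter of 1 CPM throughout a group, limma 3.58.1 voom, DESeq2 1.42.0, small non-coding, Rn45s and histone genes removed, halved counts, and each library left out.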

Additional observations from a re-analysis of the deposited data

Results flagged for a closer look

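In tumor 6 the log2 ratio of Epas1 to Hif1a counts was -4.492, apart from -3.40, -3.24 and -3.42 in tumors 3, 4 and 5. The gap to the nearest other tumor was 0.854 of the range of the 4 tumors, above Dixon's critical value of 0.829. Of 66 values tested this way, 1 passed, and chance alone passes about 1 in 20. Tumor 6 also had the lowest summed endothelial markers (110 CPM) and alveolar type 2 markers (239 CPM) of the tumors. It was also lowest for the alveolar type 1, smooth muscle and pericyte, mesothelial, macrophage, red cell and neuroendocrine sums, but not for the club cell or fibroblast sums. The part of those cells was not tested.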

How the results depend on the processing

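Across 15 alternatives, Epas1, Arnt, Vegfa and Bnip3 kept direction and call. Leaving out each library in turn, the number of the 10 genes that rose ranged from 1 to 2 (1 without either normal lung) and the number that fell from 3 to 5. The log2 fold change of Vhl was -0.013 as reported and -0.097 to 0.21 when single libraries were left out. It was above 0 with RLE scaling (0.048), upper quartile scaling (0.11), the stricter filter (0.074), DESeq2 (0.048), non-coding and histone genes removed (0.084), halved counts (0.0016) and without tumor 6 (0.21), and the cause was not tested. The difference in log2 ratio of Epas1 to Hif1a stayed between -7.38 and -6.96. With 2 normal lungs, calls of small changes are limited by replicate number, and counts of Car9 also by depth. No paired analysis was possible because each library is labelled as a separate mouse.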
